A study of Mus musculus with 6 samples.

Results

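The genes described are 10 core genes of the Notch pathway, namely the receptors Notch1, Notch2 and Notch3, the ligands Dll1, Dll3, Jag1 and Jag2, and the transcription factors Hes1, Hes5 and Hes6. They were chosen by symbol from a table of 21937 genes, and all 10 symbols were found in it. The study placed plasmids into the lateral ventricle of embryonic day 14.5 mouse brains by in utero electroporation, which delivers DNA to the neural progenitors lining the ventricle. The plasmids carried either an shRNA against Nat14, a gene named for the N-acetyltransferases (shNat14, 3 libraries), or a control shRNA (NTC, 3 libraries). Cortex was dissected at embryonic day 18.5, 4 days later, and living cells with GFP were sorted for RNA sequencing. Both groups therefore went through electroporation and sorting. Strain, sex and the promoter behind the shRNA were not given in the sources used here, nor whether each library stands for its own embryo or litter, so the p-values measure a spread that may be technical.

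Notch is a receptor that is cut when a ligand on a neighbouring cell binds it. Its intracellular part then enters the nucleus, joins the DNA-binding protein RBPJ and switches on genes such as Hes1 and Hes5. In the developing cortex these repressors hold down proneural genes and keep radial glia as progenitors, while differentiating neighbours display ligands such as Dll1. Hes6 belongs to the same family but is known to oppose Hes1 and to accompany neuronal differentiation.

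The promoters of Hes5 and Hes6 are shown because these factors were the most abundant of the 10 genes per transcript length and are placed differently in the pathway. Each line gives the 250 bases before the transcript start, 5′ to 3′ on the strand of the gene, from RefSeq on mouse assembly GRCm38.p6. Hes5 lies on the plus strand at chr4:154960673-154960922 and Hes6 on the minus strand at chr1:91413223-91413472. Capitals mark the RBPJ core motif GTGGGAA or its reverse complement TTCCCAC.
Hes5: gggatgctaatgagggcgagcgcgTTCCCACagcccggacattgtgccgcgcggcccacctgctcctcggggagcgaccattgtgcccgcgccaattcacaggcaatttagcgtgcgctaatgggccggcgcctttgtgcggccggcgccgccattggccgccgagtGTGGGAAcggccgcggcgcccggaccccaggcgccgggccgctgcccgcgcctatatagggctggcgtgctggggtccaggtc
Hes6: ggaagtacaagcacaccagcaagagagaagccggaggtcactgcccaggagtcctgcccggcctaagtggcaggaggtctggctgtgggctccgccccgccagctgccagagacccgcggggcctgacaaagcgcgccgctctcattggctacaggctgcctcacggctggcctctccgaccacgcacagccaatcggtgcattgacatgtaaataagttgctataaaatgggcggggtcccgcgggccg
The Hes5 window held 2 matches, which begin 226 and 83 bases before the start, 1 in each orientation. Neither the Hes6 window shown nor a second Hes6 start in RefSeq held a match. Promoters were found for 9 of the 10 genes, Hes1 being the one without an entry, and Hes5 alone of the 9 had a match. Among 32851 promoter windows of this length, 5.42% held the motif on either strand. The core motif CACGCG, or its reverse complement CGCGTG, is known to be bound by Hes-type repressors. It was absent from the Hes5 window, the only window with RBPJ matches. It occurred for 3 genes (Dll1, Jag1 and Notch2), for Dll1 at only 1 of its RefSeq starts. The 9 genes had 11 windows in all. Among the 32851 windows, 7.62% held this motif, a share by window and not by gene. That background was not matched for base composition. Binding was not measured, so these matches describe letters only.

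The file used holds the authors' own comparison, with 1 fold change, mean level, p-value and adjusted p-value per gene and no values per library. The depth of sequencing is therefore unknown and no SD can be given. Fold changes are shNat14 relative to NTC, a direction read from the sign of Nat14 itself, which stood at 10.05% of its control level (log2 fold change -3.31, adjusted p = 1.2e-08) in the authors' deposited table. For error, a 95% interval was worked back from each fold change and its p-value by a normal approximation, and is called the implied interval. It is only as good as that approximation.

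None of the 10 genes was called by the authors' test, whose tool the table does not name, at an adjusted p under 0.05, a threshold passed by 0.155% of all genes. The smallest adjusted p-value among them was 0.72 in the authors' deposited table, and 8 of the 10 were listed at 1. At an unadjusted p under 0.05 there were 2 genes, Hes6 with a lower value and Notch2 with a higher one. Of 17400 genes above the lowest mean level, 6.35% had such a p, 3.51% higher and 2.84% lower in shNat14, against which the 10 genes gave 1 in each direction. The fold changes of the 10 genes ran from -0.65 to 1.04 on the log2 scale, with 7 positive and 3 negative and a median of 0.18, beside 0.00 for all genes above the lowest level.

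**Figure D1:**
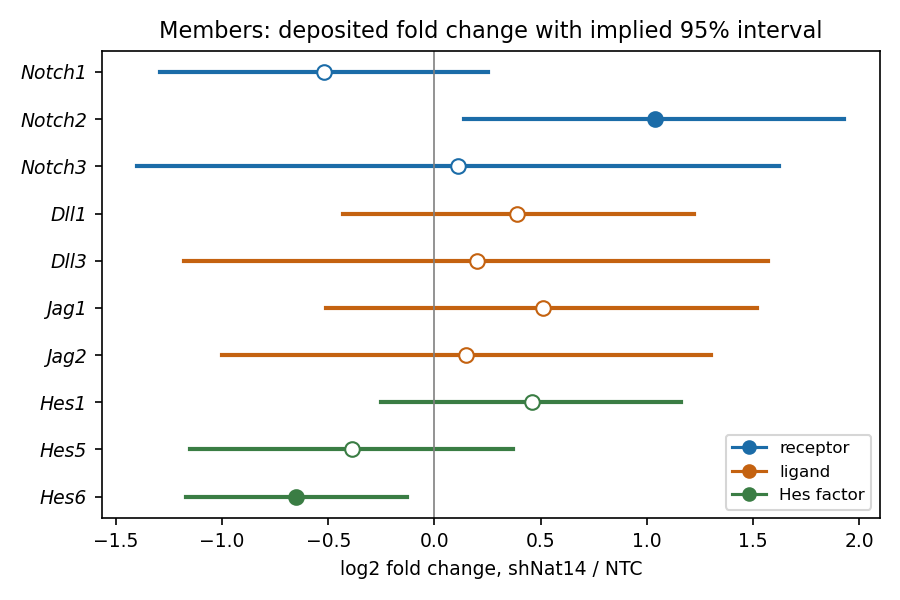
Log2 fold change (shNat14 over NTC) of each of the 10 genes as a point, filled where the unadjusted p was under 0.05, with the implied 95% interval as a line. The intervals of Notch2 and Hes6 leave out 0 and those of the other 8 include it.

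The receptors pointed in different directions. Notch2 was the gene of the 10 furthest from 0, listed at 1.04 on the log2 scale, or 2.05 times the control level, in the authors' deposited table (p = 0.023, adjusted p = 0.841). Its implied interval was 0.14 to 1.93, which is 1.1 to 3.82 times control. The implied standard error of Notch2, 0.46, was large for a gene this abundant. It exceeded that of 98.6% of the 930 genes within 0.5 log2 CPM of it, whose median was 0.28, and its fold change was at the same time larger in size than 98.7% of theirs. Notch2 thus combined a large difference with a wide implied error.

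Notch1, the receptor most often tied to radial glia, stood at -0.52, or 69.8% of control (p = 0.188) in the authors' deposited table. Its implied interval of -1.29 to 0.25 included 0. Its implied standard error of 0.39 was close to the median of 0.40 for genes of like abundance. Notch3, best known from the mural cells of blood vessels, stood at 0.11 (p = 0.886) in the authors' deposited table, where its mean level was a log2 CPM of 1.32. The implied interval of Notch3, -1.40 to 1.62, would hold both a rise and a fall of more than the size seen for Notch2. Whether Notch1 and Notch2 differed from each other in response was not tested, since that needs the libraries they share.

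All 4 ligands had positive fold changes, and none reached an unadjusted p under 0.05. Jag1, a ligand of the Jagged class, was highest at 0.51, or 142% of control (p = 0.326) in the authors' deposited table. Dll1, the Delta ligand of newly committed neuronal cells, stood at 0.39 (p = 0.35) in the authors' deposited table, and its implied interval was -0.43 to 1.22. Dll3, a Delta relative that does not activate the receptor on neighbouring cells, had 0.20 (p = 0.779) in the authors' deposited table. For Jag2, the second Jagged ligand, 0.15 was listed (p = 0.794) in the authors' deposited table. The widest implied interval among the ligands was that of Dll3, -1.18 to 1.57, and the narrowest that of Dll1. Implied standard errors of Dll3 (0.70) and Jag1 (0.52) were above those of 96.9% and 96.8% of genes of like abundance, as for Notch2. A common sign over 4 genes measured in the same libraries is a description and was not tested.

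The Hes factors did not share a sign. Hes6 had the smallest p-value of the 10 genes, and was listed at -0.65 on the log2 scale (p = 0.0137, adjusted p = 0.72) in the authors' deposited table. This is 63.8% of control, with an implied interval of -1.17 to -0.13, or 0.446 to 0.912 times control. In contrast to Notch2, its implied standard error of 0.26 was close to the 0.28 median of 669 genes of like abundance, and 94.3% of those genes had a smaller change. Hes5, the target most used as a readout of Notch activity in cortical progenitors, stood at -0.39, or 76.5% of control (p = 0.319) in the authors' deposited table. Its implied interval, -1.15 to 0.37, contained the value of Hes6 as well as 0. The implied standard error of Hes5, 0.39, exceeded that of 96.6% of 649 genes of like abundance, whose median was 0.28. Hes1, the other classical target, stood at 0.46, or 137% of control (p = 0.204) in the authors' deposited table. The interval of Hes1, -0.25 to 1.16, reached up to a 2.24-fold difference. The direct targets Hes1 and Hes5 were thus listed with opposite signs, each with an interval that included 0.

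**Figure D2:**
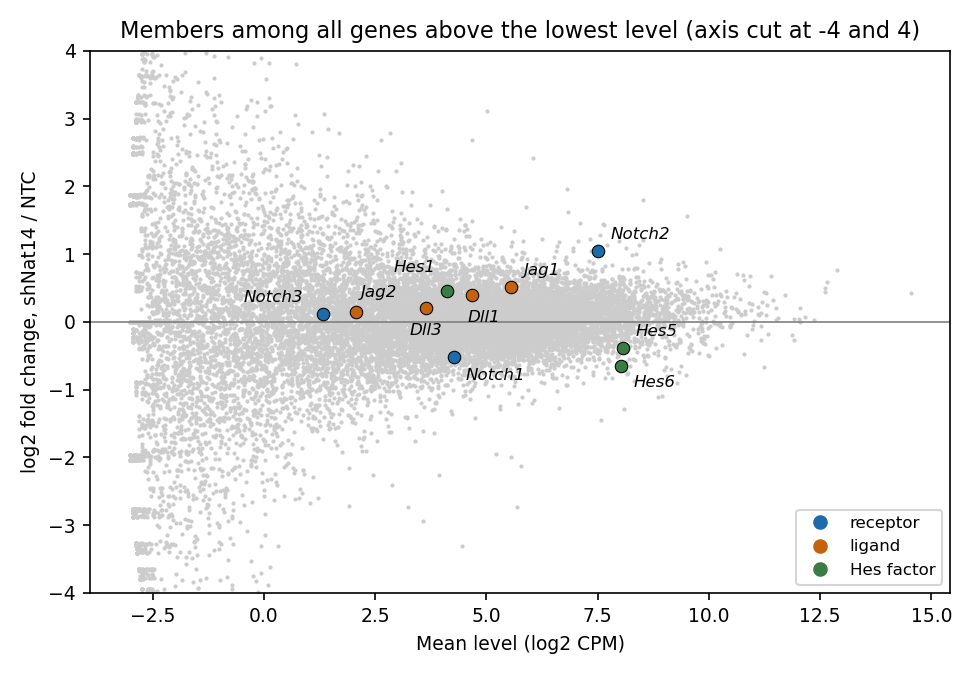
Log2 fold change against mean level (log2 CPM) for all genes above the lowest level (grey) and the 10 genes (coloured by role), with the vertical axis limited to -4 and 4. Notch2 (1.04) lies at the upper edge and Hes6 (-0.65) near the lower edge of genes of like level, while the other 8 lie within the grey cloud.

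Levels of the 10 genes were compared as mean CPM over both groups, divided by the length in kilobases of the longest protein-coding GENCODE M21 transcript. On this scale Hes5 (210 CPM per kb) and Hes6 (194 CPM per kb) were far above the rest, higher than 98% and 97.8% of genes with a length. Notch2 followed at 17.3 CPM per kb and Hes1 at 11.9 CPM per kb. The ligands Jag1, Dll1 and Dll3 came next at 8.38, 7.1 and 4.8 CPM per kb. Notch1 stood at 2.03 CPM per kb, below its paralog Notch2. Jag2 (0.82 CPM per kb) and Notch3 (0.311 CPM per kb) were the lowest. Before division by length the mean log2 CPM was 8.06 for Hes5, 8.02 for Hes6 and 7.51 for Notch2, whose transcript of 10500 bases is the longest of the 10. The spread of these levels between libraries is unknown, so the order of neighbours such as Hes5 and Hes6 was not tested. Of the 10 genes, 9 lay at or above the median mean level of the table (log2 CPM 1.71), Notch3 being the exception.

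**Figure D3:**
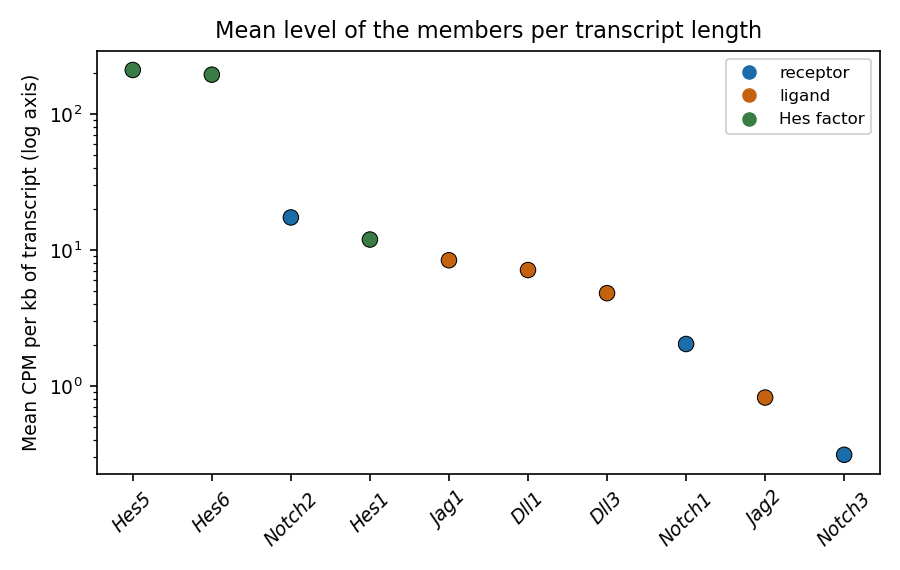
Mean level of each gene over both groups, as CPM per kb of transcript on a log axis, ordered from high to low and coloured by role. Hes5 and Hes6 stand above 100 CPM per kb, Notch2 and Hes1 above 10, and Jag2 and Notch3 below 1.

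The rest of the pathway was covered by 78 genes in 6 lists, all of them found in the table. None was called, beside 0.155% of all genes. Dner alone had an unadjusted p under 0.05, beside 6.35% of all genes above the lowest level. Their median log2 fold change was -0.03 and the median of its size was 0.23, beside 0.42 for the 10 core genes and 0.25 for genes at or above the median level. Dner is a neuronal transmembrane protein described as a Notch ligand without the usual Delta domain. It stood at 1.03 (p = 0.0106, adjusted p = 0.684) in the authors' deposited table. Its implied interval was 0.24 to 1.82. Its list of 6 other receptors and ligands had 4 higher and 2 lower values and a median of 0.28. Dlk1, a Delta-like protein, stood at -1.27 (p = 0.185) in the authors' deposited table, where its mean log2 CPM was only -0.56.

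Genes that modify or move receptors and ligands numbered 19, with 5 higher, 14 lower and a median of -0.09. The smallest p-values here were those of Mfng, a fringe sugar transferase that tunes ligand choice, at -0.59 (p = 0.138), and Poglut1, which adds glucose to the receptor, at -0.31 (p = 0.243), in the authors' deposited table. Of 10 genes for receptor cleavage 6 were higher and 4 lower. Adam10, the protease of the first ligand-induced cut, stood at 0.57 (p = 0.0738) in the authors' deposited table. Ncstn, a subunit of the gamma-secretase that makes the next cut, stood at -0.56 (p = 0.0954) in the authors' deposited table. The 20 genes of the nuclear complex and its corepressors were split evenly, 10 higher and 10 lower, with a median of -0.03. RBPJ itself, the gene Rbpj, had 0.15 (p = 0.609) in the authors' deposited table. Its corepressor Spen had -0.53 (p = 0.15) and the coactivator Maml2 0.41 (p = 0.201) in the authors' deposited table.

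Other targets also varied in sign, with 5 of 11 higher, 6 lower and a median of -0.11. Hey2, a repressor related to the Hes factors, stood at -1.07 (p = 0.125) in the authors' deposited table. Nrarp, a target that feeds back on the Notch complex, stood at -0.56 (p = 0.205) in the authors' deposited table. Among 12 proneural and neurogenic factors, the genes that Hes repressors hold down, 7 were higher, 4 lower and 1 at 0, with a median of 0.08. The smallest p-values were those of Eomes, of intermediate progenitors, at -0.54 (p = 0.144), and the neuronal factor Bhlhe22 at 0.47 (p = 0.212), in the authors' deposited table. Neurog2, the main proneural gene of the cortex, stood at 0.27 (p = 0.545) in the authors' deposited table.

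**Figure D4:**
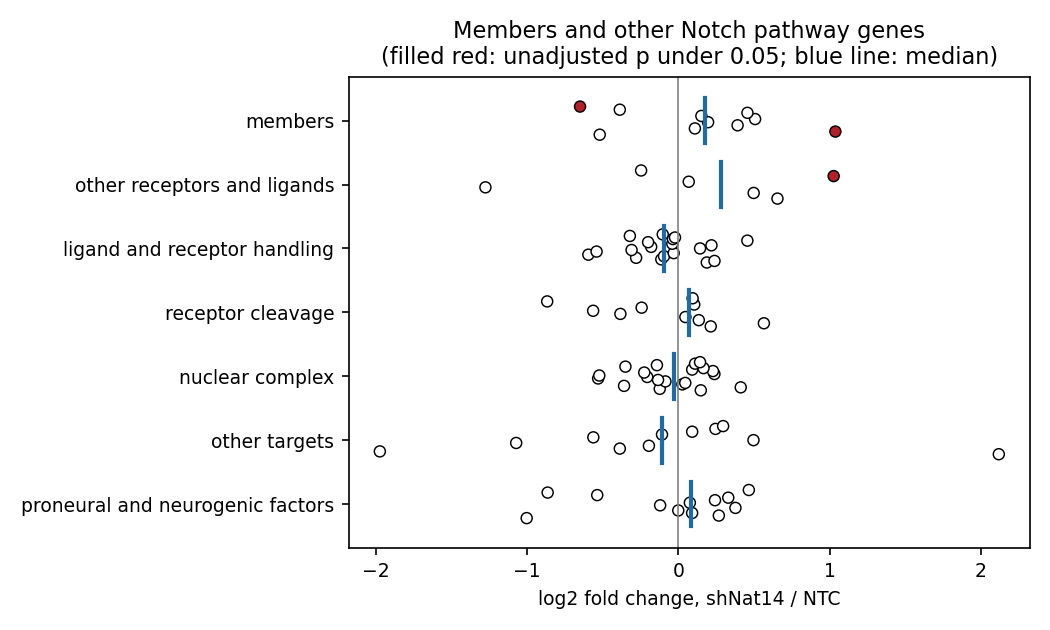
Each point is the log2 fold change (shNat14 over NTC) of 1 gene, from the core set or from 6 lists of other Notch pathway genes, filled red where the unadjusted p was under 0.05, with the list median as a blue line. The filled points are Hes6 (-0.65), Notch2 (1.04) and Dner (1.03), and list medians lie between -0.11 and 0.28.

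Notch genes are used by several cell types, so marker lists were read beside them. In bulk libraries fewer cells of a type and less RNA per cell cannot be told apart. Levels per group were worked back from the mean level and the fold change, which gives 1 value per group and no range over libraries. Worked back in this way, all genes above the lowest level summed to 967319 CPM in NTC and 1041303 CPM in shNat14. The marker sums below were not adjusted for that difference. For the marker counts, the share of all genes above the lowest level with an unadjusted p under 0.05 was 6.35%. Radial glia and cortical neuron markers were abundant in these sorted cortical cells, with Fabp7 at a mean log2 CPM of 10.97 and Neurod6 at 11.30. The 11 radial glia markers, from cells in which Notch1, Hes1 and Hes5 are known to be expressed, summed to 4118 CPM in NTC and 3702 CPM in shNat14, with 4 higher, 7 lower and none at an unadjusted p under 0.05. Slc1a3, a glutamate transporter of these cells, stood at -0.35 (p = 0.183) in the authors' deposited table. The 7 intermediate progenitor markers summed to 598 CPM in NTC and 597 CPM in shNat14, and the 10 cycling cell markers to 800 and 882 CPM. Of 10 postmitotic cortical neuron markers 9 had values, which summed to 5099 CPM in NTC and 5486 CPM in shNat14. Among these, 4 were higher and 5 lower, none at an unadjusted p under 0.05.

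Markers of astrocytes, which also use Notch1 and Hes5, were lower in 10 of 10 genes, 5 of them at an unadjusted p under 0.05. Their summed level was 1901 CPM in NTC and 1152 CPM in shNat14, with Apoe at -1.10 (p = 0.00021) in the authors' deposited table. Interneuron markers, whose migrating cells and precursors can carry Hes6, were lower in 6 of 10 genes, with 4 of these at an unadjusted p under 0.05. Dlx5, a transcription factor of that lineage, stood at -0.76 (p = 0.0134) in the authors' deposited table, beside -0.65 for Hes6. The summed interneuron level was 731 CPM in NTC and 759 CPM in shNat14, a sum dominated by Sp8 at a mean log2 CPM of 8.99. The part of either cell type in the values of Notch1, Hes5 and Hes6 was not tested.

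Cells of vessels and of the choroid plexus are known to express Notch2, Notch3, Jag1 and Hes1. The libraries were sorted for living GFP-positive cells after electroporation from the ventricle. Vessel, meningeal and microglial cells would not be expected to pass this gate. How reads of their markers entered the libraries was not tested. Choroid plexus markers were higher in 7 of 8 genes, none at an unadjusted p under 0.05, and summed to 179 CPM in NTC and 599 CPM in shNat14, nearly all of it Ttr (1.80, p = 0.065, in the authors' deposited table). Mural cell markers were higher in 6 of 10 genes, 2 of them at an unadjusted p under 0.05, and summed to 44.9 CPM in NTC and 84.7 CPM in shNat14. These 2 were Acta2, a contractile actin, at 1.86 (p = 0.021) and Rgs5, the most abundant mural marker, at 1.41 (p = 0.0477) in the authors' deposited table. Pdgfrb, the receptor that defines mural cells, was listed at -0.75 (p = 0.187) in the authors' deposited table. Endothelial markers were higher in 8 of 10 genes, 2 of them at an unadjusted p under 0.05, and summed to 17.2 CPM in NTC and 29.8 CPM in shNat14, with 4 of the 10 below a mean log2 CPM of 0. The authors' deposited table listed these 2, the sialomucin Emcn and the angiopoietin receptor Tek, at 4.98 (p = 0.0137) and 4.43 (p = 0.0397). Their mean levels were only -0.21 and 1.20 log2 CPM, so these sizes are uncertain. The 2 most abundant endothelial markers, Cldn5 and Egfl7, stood at 0.18 and 0.51 (p = 0.821 and 0.446) in the authors' deposited table. The vascular members of the pathway Dll4 and Notch4 stood at 0.50 and 0.66 (p = 0.522 and 0.421, respectively) in the authors' deposited table, both at low mean levels of 0.93 and 0.32 log2 CPM. The part of these cells in the values of Notch2, Jag1 and Hes1 was not tested. Meningeal markers were lower in 6 of 8 genes (70.7 CPM in NTC, 44.7 CPM in shNat14), 2 of them at an unadjusted p under 0.05. Microglial markers were lower in 8 of 10 genes (48.9 and 23.4 CPM), 4 of them at such a p, with the complement gene C1qb at -1.62 (p = 0.00169) in the authors' deposited table. Oligodendrocyte lineage markers were lower in 7 of 8 genes (186 and 150 CPM), 1 of them at such a p.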

How the data were processed

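RNA from sorted cortical cells was sequenced as 3 shNat14 and 3 NTC libraries, grouped by sample title. The file is a table of the authors' own comparison. Per the file headers, each gene has 2 log2 values, the fold change and the mean CPM, and 2 p-values, unadjusted and adjusted, all deposited by the authors and unaltered here. The adjusted values matched a Benjamini-Hochberg adjustment of the p-values over the table within 0.001 for all 21937 genes. Per the submitters' processing notes the tools, whose roles are not described, were HTSeq 0.5.4p1, DESeq, SAMtools 0.1.19 and TopHat2 2.0.8, and the build was the human hg19 although the samples are mouse. The sources used here do not say which build, normalization or filter lies behind the table.

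The 10 genes and the gene lists were chosen with earlier results of these data known. Genes at the lowest mean level (log2 CPM -3.09, 4537 genes) were left out of the background at unadjusted p. Implied standard errors are the fold change divided by the normal quantile of its two-sided p-value. Their code and that of the adjustment were checked on simulated fold changes with normal errors. Those p-values came from the same normal formula, so the check cannot show whether the approximation suits the deposited p-values. Levels per group assume that the mean CPM is the average of both groups. Transcript lengths came from GENCODE M21 (14841 genes above the lowest level with a length). Promoters came from RefSeq, GRCm38.p6, matched by symbol for 9 genes. Of 190 list entries in 18 lists 189 were matched. The genes to be named were all 10 core genes, the 2 with the smallest p in each pathway list, and in each marker list the 2 most abundant and the 1 with the smallest p, of which those beside a result are printed. Rbpj, Neurog2, Dll4, Notch4, Tek and the genes of the closing section were chosen after their values were seen. The values of some single genes are not reported here. Python 3.11.15, pandas 2.3.3, numpy 2.4.6, scipy 1.17.1 and matplotlib 3.10.9 were used. Alternatives tried were other adjustments and thresholds, a level filter, re-centred fold changes and leaving out each gene.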

Additional observations from a re-analysis of the deposited data

How the results depend on the processing

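The count of 0 called genes among the 10 was the same with adjustment over genes above the lowest level or those at least at the median level, with Bonferroni correction and at an adjusted p under 0.1. The lowest adjusted p of any of the 10 under these adjustments was 0.571, for Hes6. Bonferroni correction is stricter than the authors' adjustment, whose smallest value among the 10 was 0.72. That correction and the 0.1 threshold therefore could not add a call. At an unadjusted p under 0.01, the 2 genes Hes6 and Notch2 became 0 and the single pathway gene Dner became 0. Limiting the counts to genes at or above the median level left 2 and 1. Re-centring the fold changes, by 0.00329 or 0.0323, could not change the direction of any of the 10, since the smallest was 0.11, for Notch3. The median of the 10 was then 0.17 and 0.14. Leaving out 1 gene at a time gave medians from 0.15 to 0.20. No paired analysis was possible because individual libraries are not in the file used here, and for the same reason no library could be left out in turn. The depth is unknown, so what it limits cannot be stated beyond the wide implied intervals at low levels.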

Other observations

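Other helix-loop-helix genes that act with or against Hes factors were read after the values were seen. Id2 and Id3, which keep proneural factors from binding DNA, stood at -0.30 and -0.34 (p = 0.314 and 0.3) in the authors' deposited table. Id1 and Id4 stood at 0.02 and -0.13 (p = 0.97 and 0.723) in the authors' deposited table. The E proteins Tcf4, Tcf12 and Tcf3, partners of proneural factors, stood at 0.11, 0.15 and -0.30 (p = 0.655, 0.602 and 0.357) in the authors' deposited table. Bhlhe40, a repressor of the same broad family, had -0.72 with p = 0.052 in the authors' deposited table.

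Protein-coding neighbours in RefSeq were read beside the 2 core genes with an unadjusted p under 0.05. Gm5544, Sec22b and Pde4dip, on one side of Notch2, stood at 0.10, -0.06 and 0.22 (p = 0.952, 0.825 and 0.429) in the authors' deposited table. Adam30 and Reg4, on the other side, had -2.87 and -2.77 (p = 0.624 and 0.604) in the authors' deposited table, both near its lowest mean level. Around Hes6, Ilkap and Per2 stood at 0.00 and 0.49 (p = 0.992 and 0.303) in the authors' deposited table. Further out, Traf3ip1 had 0.37 (p = 0.469) and Asb1 had -0.55 (p = 0.136) in the authors' deposited table. Klhl30 had 0.00 there, at a mean log2 CPM of only -1.94.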
